A study of Mus musculus with 4 samples.

Results

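The miRNAs described here are mmu-miR-15a-5p, mmu-miR-15b-5p, mmu-miR-16-5p, mmu-miR-195a-5p, mmu-miR-103-3p and mmu-miR-107-3p (mmu for the mouse, left out below), which were chosen by name because their seed regions are alike. They are 6 of the 645 mature miRNAs with at least 1 sense read of 18 nt or more in the 4 libraries. Small RNA was sequenced from 4T1 cells, from 4TO7 cells and from the extracellular vesicles (EVs) of each line, with 1 library for each of these 4 groups. 4T1 and 4TO7 are mouse mammary carcinoma lines, and EVs are membrane-bound particles that cells release. All groups were grown in DMEM with EV-free serum, the labels name no drug or genetic change, and the EVs were pelleted by ultracentrifugation. No group had a replicate culture, so every interval below is a 95% interval of counting error only, and differences between libraries cannot be told apart from differences between cultures or preparations.

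A miRNA guides Argonaute proteins to messenger RNAs, and pairing of its seed, the bases near its 5′ end, with a target site is the main determinant of which messages are repressed. The miR-15/16 family is known for repressing cell cycle and survival genes such as cyclins and Bcl2, and loss of the miR-15a and miR-16-1 locus is a recurrent lesion of human chronic lymphocytic leukaemia. MiR-103 and miR-107 lie within pantothenate kinase genes, are known to target Dicer and caveolin-1, and are sometimes placed in a wider group with miR-15/16 because of the shared bases of their seeds.

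The mature sequences, taken from RefSeq (GRCm38.p6) and written 5′ to 3′, show why these miRNAs belong side by side. Capitals mark the seed, bases 2 to 8.
miR-15a-5p: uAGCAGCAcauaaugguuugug
miR-15b-5p: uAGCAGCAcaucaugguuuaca
miR-16-5p: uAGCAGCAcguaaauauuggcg
miR-195a-5p: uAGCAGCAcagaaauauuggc
miR-103-3p: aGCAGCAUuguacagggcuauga
miR-107-3p: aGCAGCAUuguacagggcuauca
The miR-15/16 members shared the seed AGCAGCA. MiR-103 and miR-107 shared the seed GCAGCAU, and their bases 1 to 7 were the same AGCAGCA, so the groups hold the same run of letters shifted by 1 base. Starts other than base 1 change the seed, and starts after base 1 were rare among the listed reads. The reads were matched to the mature sequences, and miR-103-3p had 0 of 10392 reads of 24 nt in 4T1 cells. Reads that began before base 1 or ran past the last base could therefore not be assessed. MiR-103-3p reads began at base 1 in 98.6% of cases in 4T1 EV and 98.2% in 4T1 cells, and in 99.2% in 4TO7 EV and 97.6% in 4TO7 cells. Most of the other starts were at base 3, with 172 of 10392 reads from 4T1 cells and 78 of 3565 from 4TO7 cells. MiR-16-5p began at base 1 in 1603 of 1609 reads from 4T1 cells and 272 of 273 from 4TO7 cells, and miR-15b-5p in 1078 of 1085 and 411 of 412.

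Several members come from the same primary transcript. In GRCm38, the mature miR-15a-5p lies at chr14:61632075-61632096 on the minus strand, in an intron of the long non-coding RNA gene Dleu2. The first copy of miR-16-5p (Mir16-1, chr14:61631936-61631957, minus) has its 5′ end 139 nt from that of miR-15a-5p. Its hairpin overlaps an exon of an annotated Dleu2 transcript, whereas for miR-15a only the mature arms were checked. MiR-15b-5p (chr3:69009775-69009796, plus) and the second copy of miR-16-5p (Mir16-2, chr3:69009918-69009939, plus) both lie in an intron of Smc4, a condensin subunit gene, with their 5′ ends 143 nt apart. The copies give the same mature sequence, so a miR-16-5p read cannot be assigned to either locus. MiR-195a-5p (chr11:70235062-70235082, plus) lies outside other annotated genes, 332 nt from miR-497a-5p. MiR-103-3p has copies in introns of Pank3 (Mir103-1, chr11:35782447-35782469, plus) and Pank2 (Mir103-2, chr2:131288103-131288125, plus), and miR-107-3p (chr19:34820700-34820722, minus) lies in an intron of Pank1.

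Values are sense reads of 18 nt or more, also given as reads per 1000000 miRNA alignments of that length (RPM). These alignments numbered 57962 and 51697 in the EV libraries of 4T1 and 4TO7, and 603186 and 177647 in the respective cell libraries, from between 7108811 and 15633644 processed reads per library. A count of 0 therefore allows up to 3 reads, or between 4.97 and 58.0 RPM. A list of 6 epithelial miRNAs summed to 6625 RPM in 4T1 EV and 6502 in 4T1 cells, against 96.7 and 236 RPM in the 4TO7 libraries in the same order. Its member miR-205-5p went the other way, with 41 of the 42 reads of the list in 4TO7 cells and 0 reads in both 4T1 libraries. The liver miRNA miR-122-5p had 160 reads in the EVs of 4T1 and 1092 in those of 4TO7, against 1 in each cell library. For 3 erythroid miRNAs the sum was 276 and 774 RPM in these EV libraries against 11.6 and 11.3 RPM in the cell libraries. Of these reads miR-486-5p gave 14 of 16 in 4T1 EV, 31 of 40 in 4TO7 EV and all in cells. The listed miR-144-3p had 0 reads in both EV libraries. A list of 3 muscle miRNAs summed to 1052 RPM in 4T1 EV against 255 in 4T1 cells. Most of this was miR-206-3p alone, with 56 of 61 reads in 4T1 EV and 154 of 154 in 4T1 cells. The muscle list summed to 116 RPM in 4TO7 EV, with 0 reads of miR-206-3p, against 0 reads in 4TO7 cells. A list of 3 blood-cell miRNAs summed to at most 1 read. The part of these other sources in the results below was not tested.

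MiR-103-3p and miR-107-3p were the abundant members, and both were lower in the EV library than in the cell library of each line. MiR-103-3p had 349 reads (6021 RPM) in 4T1 EV against 10392 (17229 RPM) in 4T1 cells, and 368 (7118 RPM) in 4TO7 EV against 3565 (20068 RPM) in 4TO7 cells. MiR-107-3p had 346 reads (5969 RPM) against 10121 (16779 RPM) in 4T1, and 348 (6732 RPM) against 3462 (19488 RPM) in 4TO7. For both, the EV libraries were close to each other and well below the cell libraries. By abundance miR-103-3p ranked 28th and 26th among miRNAs of the EV libraries and 15th and 16th in cells. MiR-15b-5p had 46 reads (794 RPM) in 4T1 EV against 1085 (1799 RPM) in 4T1 cells, and 22 (426 RPM) in 4TO7 EV against 412 (2319 RPM) in 4TO7 cells. MiR-16-5p had 27 reads (466 RPM) against 1609 (2668 RPM) in 4T1, and 6 (116 RPM) against 273 (1537 RPM) in 4TO7. Both had lower levels in EVs than in cells of the same line, and their order differed between the cell libraries. MiR-15a-5p had 30 reads (518 RPM) in 4T1 EV against 64 (106 RPM) in 4T1 cells, and 14 (271 RPM) in 4TO7 EV against 36 (203 RPM) in 4TO7 cells, so its highest level was in an EV library. MiR-195a-5p, which has the same seed at another locus, had 1 read in 4TO7 EV, 2 in 4TO7 cells and 0 in both 4T1 libraries. It was at or under the detection limit everywhere, so no ratio is given for it.

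**Figure D1:**
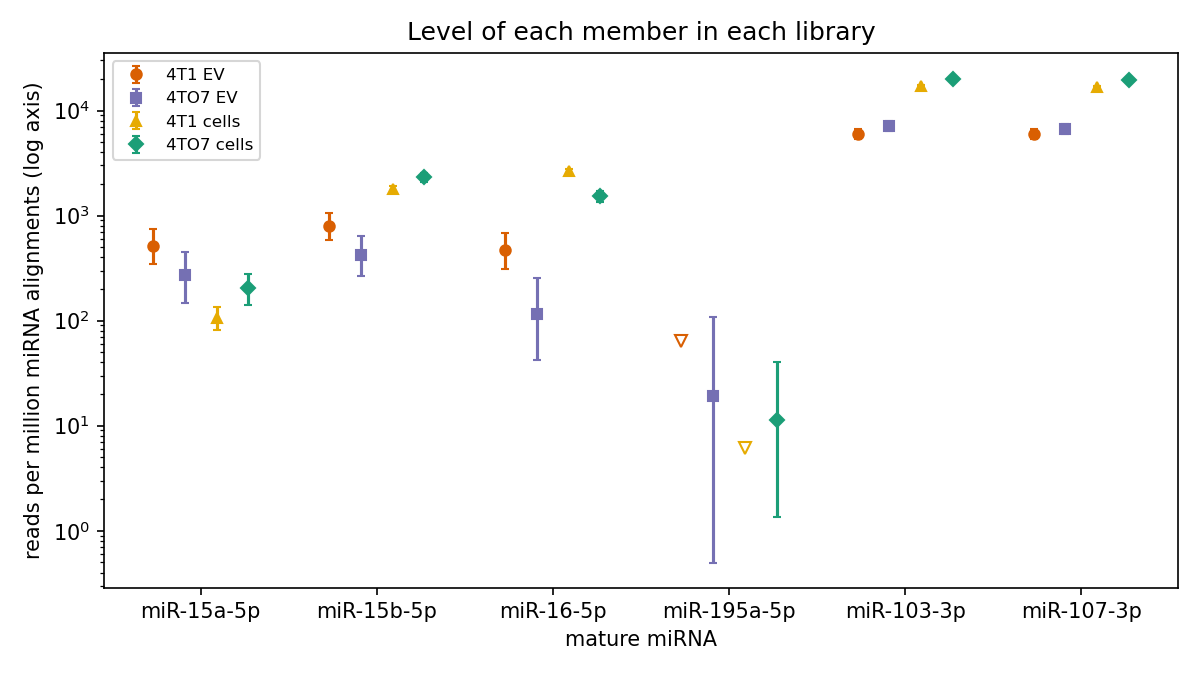
Level of each member in each library, in RPM on a log axis. Points are single libraries, bars are 95% counting intervals, and open triangles mark the upper limit where a library had 0 reads. MiR-103-3p and miR-107-3p lie between 5969 and 20068 RPM. Of the 5 members with reads in every library, only miR-15a-5p has points that are higher for EVs than for cells of the same line. In 4TO7 the interval of its ratio included 1 (0.666 to 2.54), and most of its EV reads had lengths shared with miR-15b-5p.

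Members that differ by few bases share reads, because the authors' alignment allowed 1 mismatch and listed a read under each mature miRNA it matched. With the differing bases in capitals, the near-identical pairs read as follows.
miR-15a-5p: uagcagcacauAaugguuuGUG
miR-15b-5p: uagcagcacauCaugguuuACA
miR-103-3p: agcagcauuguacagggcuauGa
miR-107-3p: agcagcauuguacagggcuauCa
Counted from the 5′ end, miR-103-3p and miR-107-3p differ at the single substitution G22C, so a read of either at any length lies within 1 mismatch of the other. Over the 4 libraries, all 14 combinations of start and length that ended at base 21 or before had equal counts for both, 656 reads each. Of the longest, 23 nt reads, miR-103-3p and miR-107-3p had 8565 and 8319 in 4T1 cells and 135 and 132 in the EVs of 4T1. Their read ratio was 1.01 and 1.06 in the EV libraries of 4T1 and 4TO7, and 1.03 in each cell library. The tables thus do not separate miR-103-3p from miR-107-3p, so beside each count of members in EVs against cells the count is also given with shared reads counted once. For this, the larger count of the pair was taken at each shared start and length, which is the fewest distinct reads possible. MiR-15a-5p and miR-15b-5p differ at A12C, G20A, U21C and G22A, so reads that start at base 1 are shared up to 19 nt and separable from 20 nt. MiR-16-5p and miR-195a-5p differ at G10A and U11G and share no window of 18 nt or more within 1 mismatch.

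The EV reads of miR-15a-5p, miR-15b-5p and miR-103 and miR-107 were often 19 nt long, whereas those of miR-16-5p were not. Of miR-15a-5p reads, 27 of 30 were 19 nt long in 4T1 EV against 10 of 64 in 4T1 cells, and 12 of 14 in 4TO7 EV against 5 of 36 in 4TO7 cells. Of miR-15b-5p reads, 28 of 46 were 19 nt long against 12 of 1085 in 4T1, and 15 of 22 against 4 of 412 in 4TO7. The 19 nt reads were the most common class of both in each EV library and a minority in each cell library. The pair shares reads of this length, so they cannot be assigned to miR-15a-5p or miR-15b-5p and do not show 2 separate patterns. Of reads of 20 nt or more, which separate the pair, miR-15a-5p had 1 in 4T1 EV and 0 in 4TO7 EV. MiR-103-3p had 135 of 349 reads at 19 nt in 4T1 EV (38.7%, 33.5% to 44.0%) and 77 of 368 in 4TO7 EV (20.9%, 16.9% to 25.4%). The cell libraries held 6 of 10392 such reads in 4T1 and 3 of 3565 in 4TO7. Among the pooled reads of all other miRNAs, 19 nt reads were 9.48% in 4T1 EV and 5.97% in 4TO7 EV. The share for miR-103-3p lay above this pooled share beyond counting error in both EV libraries. Abundant miRNAs weigh most in such a pool, and the spread among single miRNAs was not examined. Short EV reads were not particular to these members: at 18 nt the other miRNAs had 30.0% of their reads in the EVs of 4T1 and 17.9% in those of 4TO7, more than the 8.60% and 8.70% of miR-103-3p. With 18 and 19 nt added, the share was 47.3% for miR-103-3p and 39.5% for the others in 4T1 EV, and 29.6% and 23.9% in 4TO7 EV, against 2.17% and 2.12% for the others in the cell libraries. At 19 nt in cells the order was the opposite, with 0.0577% and 0.0842% for miR-103-3p against 1.04% and 0.776% for the others.

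These short reads of the miR-15 pair and of miR-103 and miR-107 lacked the last 3 or 4 bases of the mature form. The first 19 bases are in capitals below, with miR-16-5p for comparison.
miR-15b-5p: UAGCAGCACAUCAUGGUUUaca
miR-103-3p: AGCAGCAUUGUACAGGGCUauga
miR-16-5p: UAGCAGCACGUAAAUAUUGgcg
MiR-16-5p had 0 of 27 reads at 19 nt in 4T1 EV, which allows a share of up to 12.8% (exact binomial interval), and 0 of 6 in 4TO7 EV, where the depth sets no useful limit. Of its reads 18 of 27 in 4T1 EV had the full 22 nt, against 1434 of 1609 from 4T1 cells and 247 of 273 from 4TO7 cells. For miR-15b-5p in 4T1 EV the lower end of the 19 nt share was 45.4%, so in that library the 19 nt shares of miR-15b-5p and miR-16-5p differed beyond counting error. The full 23 nt form of miR-103-3p was 38.7% of its reads in 4T1 EV against 82.4% in 4T1 cells, and 60.3% in 4TO7 EV against 84.6% in 4TO7 cells.

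**Figure D2:**
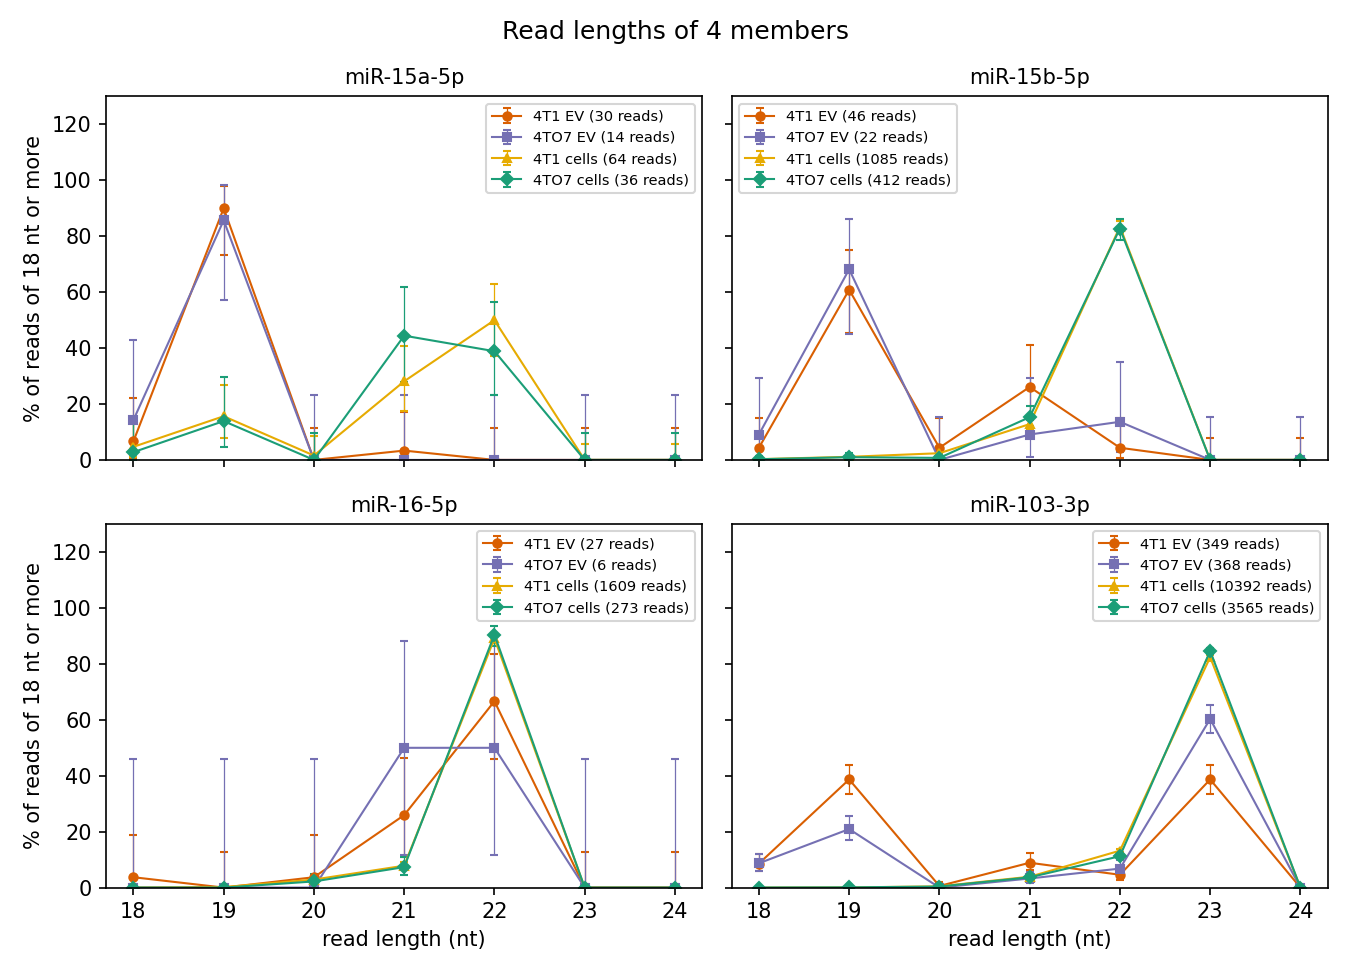
Share of each miRNA's sense reads of 18 nt or more (y axis, %) at each read length (x axis, nt) in the 4 libraries, with 95% counting intervals; numbers of reads are in the keys. EV libraries peak at 19 nt for miR-15a-5p and miR-15b-5p, which share reads of that length. They have a second peak there for miR-103-3p, while miR-16-5p has 0 reads of 19 nt in either EV library.

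The comparison of 4T1 EV with 4T1 cells asked which members were over- or under-represented in the vesicles. A miRNA was called where the whole interval of the RPM ratio lay beyond 2-fold, among miRNAs with at least 50 reads in 1 of the 2 libraries. Of 5 members compared, 3 were lower and 1 was higher, where 29.8% of all 208 compared miRNAs were lower and 10.6% were higher. MiR-16-5p was 5.73-fold lower in EVs (3.92 to 8.72), miR-103-3p 2.86-fold lower (2.57 to 3.19) and miR-107-3p, with the same reads, 2.81-fold lower. MiR-15b-5p was 2.27-fold lower (1.69 to 3.11) and was not called. MiR-15a-5p was 4.88-fold higher (3.05 to 7.64). With shared reads counted once there were 3 sets of reads, of which miR-16-5p and the pair of miR-103-3p and miR-107-3p were lower and the pair of miR-15a-5p and miR-15b-5p was not called. The median log2 ratio was -1.49 over the 5 members, -1.51 over the 3 sets and -1.06 over all 208 miRNAs. With median-of-ratios scaling the log2 ratios of miR-103-3p and miR-107-3p were -1.08 and -1.05 in 4T1 and -1.09 and -1.13 in 4TO7, and these were no longer called in either line.

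The higher call of miR-15a-5p rested on reads that the tables also list under miR-15b-5p. Of its 30 EV reads, 29 were of 18 or 19 nt, lengths at which miR-15b-5p had 30 reads. Among reads of 20 nt or more, which separate the pair, miR-15a-5p had 1 read in 4T1 EV against 51 in 4T1 cells, a ratio of 0.331 with an interval from 0.00821 to 1.93. MiR-15b-5p then had 16 against 1070 reads, 3.97-fold lower (2.43 to 6.96) and called. At that length miR-16-5p was 3.66-fold lower (2.49 to 5.62) and miR-103-3p 3.35-fold lower (2.89 to 3.89), so the intervals of all 3 overlapped. Ratios at this minimum were scaled to the miRNA alignments of 20 nt or more, 35017 in 4T1 EV and 590575 in 4T1 cells. MiR-16-5p kept 26 and 1606 reads in these libraries, so its ratio moved mainly with the totals. With each shared read counted once, miR-15a-5p and miR-15b-5p together had at least 47 reads in 4T1 EV and at least 1136 in 4T1 cells. By these minimum counts the pair was 2.32-fold lower (1.73 to 3.18). This minimum of 20 nt was chosen after the reads had been seen.

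In 4TO7, all 4 members compared were lower in EVs than in cells, where 38.2% of all 131 compared miRNAs were lower and 16.8% were higher. MiR-16-5p was 13.2-fold lower (6.01 to 36.4), miR-15b-5p 5.45-fold lower (3.55 to 8.79), miR-103-3p 2.82-fold lower (2.53 to 3.15) and miR-107-3p 2.90-fold lower. With shared reads counted once, these were 3 sets of reads, and all 3 were lower; the pair of miR-15a-5p and miR-15b-5p was then 5.86-fold lower (3.82 to 9.45). The median log2 ratio was -1.97 over the 4 members, -2.52 over the 3 sets and -0.96 over all 131 miRNAs. MiR-15a-5p had fewer than 50 reads in both libraries and a ratio of 1.34 (0.666 to 2.54). Among reads of 20 nt or more it had 0 in 4TO7 EV and 30 in 4TO7 cells, which is at least 2.26-fold lower against the floor of 3 reads. The exact interval of that ratio, which also counts the error of the cell library, reached 0.580 and did not pass 2-fold. Ratios at that length were scaled to 39279 miRNA alignments of 20 nt or more in 4TO7 EV and 174018 in 4TO7 cells. MiR-15b-5p then had 5 reads against 407, 18.4-fold lower (7.81 to 56.9). MiR-16-5p had 6 against 273, the same counts as at 18 nt or more, and was 10.3-fold lower (4.66 to 28.2) on these totals. Both intervals lay below that of miR-103-3p, which was 3.10-fold lower (2.73 to 3.53), so in this pair of libraries both were further below their cell level than miR-103-3p, beyond counting error.

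**Figure D3:**
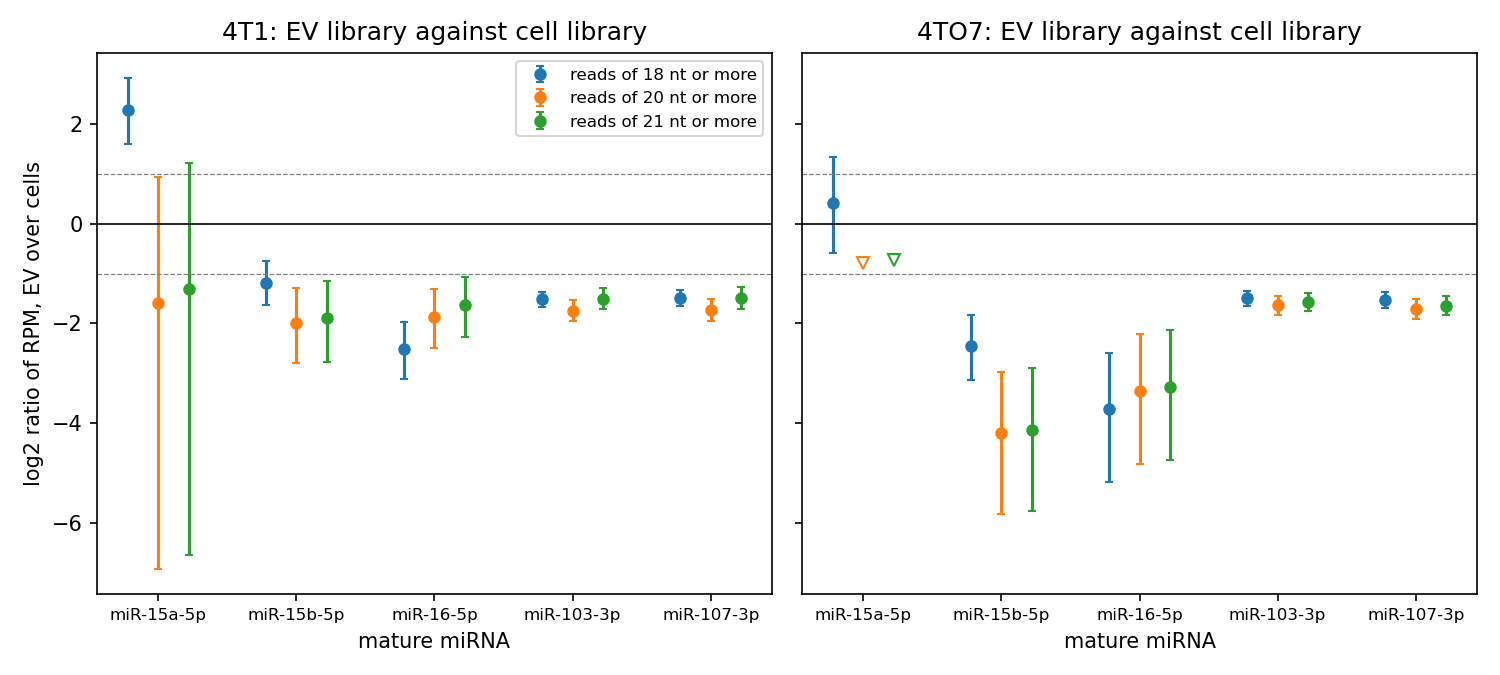
Log2 ratio of RPM in EVs over cells (y axis, no reads added) for 5 members in 4T1 (left) and 4TO7 (right), with reads of 18, 20 and 21 nt or more. Points are ratios of single libraries, bars are 95% counting intervals, open triangles are upper limits where the EV library had 0 reads, and dashed lines mark 2-fold. MiR-15a-5p in 4T1 falls from above 0 to below 0 once reads under 20 nt are left out, while miR-103-3p lies below the 2-fold line at each minimum length in both lines.

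The size of the EV deficit was compared between lines as the difference of log2 ratios, 4T1 minus 4TO7. None of 4 members compared differed by more than 2-fold beyond counting error, where 5.43% of 129 miRNAs were higher in 4T1 and 12.4% lower. MiR-103-3p gave a difference of -0.02 (-0.24 to 0.20) and miR-107-3p 0.04 (-0.18 to 0.26). MiR-15b-5p gave 1.25 (0.51 to 1.99) and miR-16-5p 1.12 (-0.12 to 2.37), and the interval of miR-16-5p included 0. In reads of 20 nt or more the difference was 2.12 for miR-15b-5p (0.72 to 3.52), 1.40 for miR-16-5p (0.15 to 2.65) and -0.11 for miR-103-3p (-0.39 to 0.17), and again none lay wholly beyond 1.

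Between the cell libraries, 4T1 against 4TO7, no member passed 2-fold in either direction, where 13.5% of 208 miRNAs were higher in 4T1 and 5.29% lower. MiR-16-5p was 1.74-fold higher in 4T1 cells (1.53 to 1.98), and miR-15b-5p had a ratio of 0.776 (0.692 to 0.871), miR-15a-5p of 0.524 (0.343 to 0.811) and miR-103-3p of 0.859 (0.826 to 0.892). Each interval excluded 1 and none lay wholly beyond 2-fold. MiR-16-5p was thus on the other side of 1 from the rest, except that per genome-aligned read the log2 ratios of miR-15a-5p, miR-15b-5p and miR-103-3p turned to 0.56, 1.14 and 1.28, with miR-16-5p at 2.30. The median log2 ratio of the 5 members was -0.22, against 0.17 over all 208. Between the EV libraries only miR-103-3p and miR-107-3p had enough reads. Neither was called, where 24.4% of 82 miRNAs were higher in 4T1 and 17.1% lower. MiR-103-3p had a ratio of 0.846 (0.729 to 0.982) and miR-107-3p of 0.887 (0.762 to 1.03), with a median log2 ratio of -0.21 against 0.14 over all 82. MiR-16-5p, with 27 against 6 reads, had a ratio of 4.01 (1.62 to 11.9). These 4 comparisons share libraries and are not independent.

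The levels of miR-15a-5p and miR-15b-5p relative to miR-16-5p differed between the cell libraries of the lines, as ratios within a library that need no scaling to its total. Because miR-16-5p reads sum over both loci, neither is a ratio of partners of 1 transcript. In reads of 20 nt or more, which avoid the shared short reads, miR-15b-5p over miR-16-5p was 0.666 in 4T1 cells (0.616 to 0.720) but 1.49 in 4TO7 cells (1.28 to 1.74). The order of these miRNAs was thus opposite in the cell libraries, with miR-16-5p ahead in 4T1 and miR-15b-5p ahead in 4TO7. The ratio in 4T1 cells was 2.24-fold lower than in 4TO7 cells (1.88 to 2.67), and counting reads of 18 nt or more gave 2.24 as well. MiR-15a-5p over miR-16-5p was 0.0318 in 4T1 cells (0.0235 to 0.0420) but 0.110 in 4TO7 cells (0.0727 to 0.161), 3.46-fold lower in 4T1 (2.09 to 5.65). In both cell libraries miR-15a-5p was therefore a small fraction of miR-16-5p.

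In EVs the same ratios had wide intervals. MiR-15b-5p over miR-16-5p in reads of 20 nt or more was 0.615 (0.308 to 1.19) in 4T1 EV, from 16 and 26 reads, and 0.833 (0.201 to 3.28) in 4TO7 EV, from 5 and 6 reads. The EV ratio divided by the cell ratio was 0.924 (0.461 to 1.80) in 4T1 and 0.559 (0.134 to 2.22) in 4TO7, so no shift between miR-15b-5p and miR-16-5p was detectable at this depth. With reads of 18 nt or more the ratio in 4T1 EV was 1.70 (1.04 to 2.85) against 0.674 in 4T1 cells, a 2.53-fold higher ratio (1.53 to 4.25) that was not seen once reads of 18 and 19 nt were left out.

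**Figure D4:**
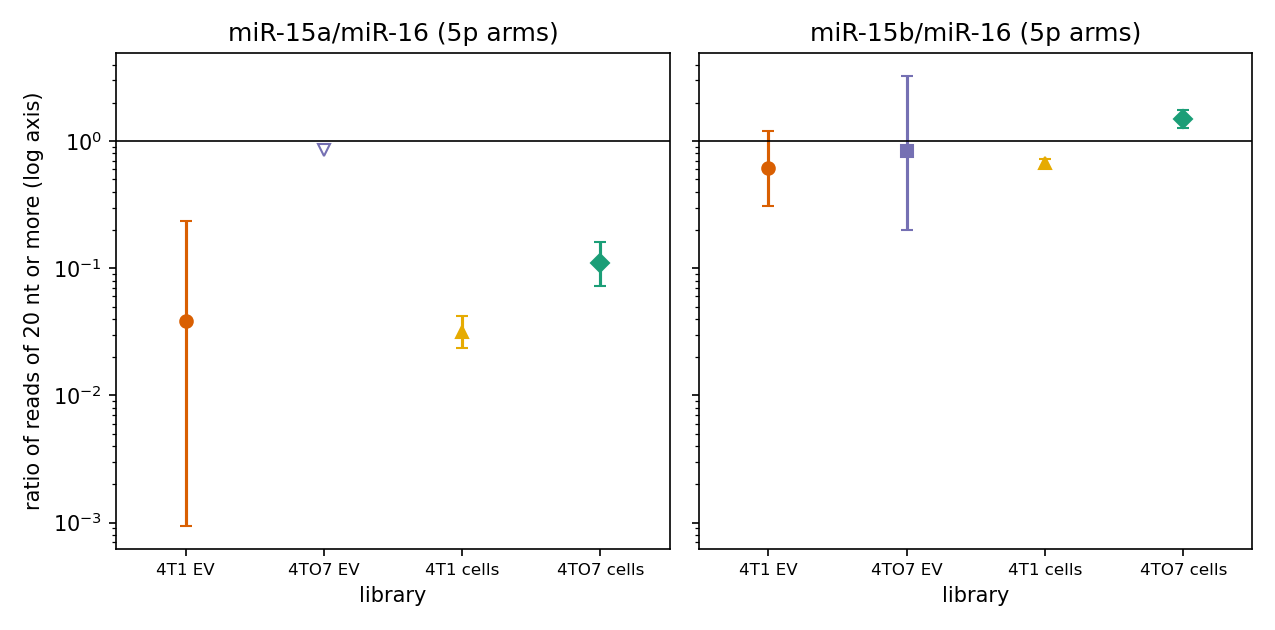
Ratio of reads of 20 nt or more within each library (log axis) for miR-15a over miR-16 (left) and miR-15b over miR-16 (right), with 95% counting intervals; the open triangle is an upper limit where miR-15a had 0 reads, and the line marks 1. The cell libraries lie on opposite sides of 1 for miR-15b over miR-16, at 0.666 in 4T1 and 1.49 in 4TO7.

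The opposite arms of the hairpins had at most 2 reads each in an EV library. MiR-15b-3p had 206 reads in the cells of 4T1, 49 in those of 4TO7 and 1 in each EV library. It was called lower in 4T1 EV, at a ratio of 0.0505 (0.00127 to 0.285). The 3p arms of miR-16, which do separate its loci, had 44 reads of miR-16-1-3p and 25 of miR-16-2-3p in 4T1 cells, against 13 and 11 in 4TO7 cells. Reads were thus present from both the Dleu2 and the Smc4 locus in both lines, in a ratio of 1.76 for 4T1 (1.05 to 3.00) and 1.18 for 4TO7 (0.489 to 2.91). MiR-16-5p had 23.3 reads for each read of these 3p arms in 4T1 cells (18.3 to 30.1) but 11.4 in 4TO7 cells (7.49 to 18.1), a 2.05-fold difference (1.21 to 3.37). MiR-15b-5p over miR-15b-3p went the other way, at 5.27 in 4T1 cells against 8.41 in 4TO7 cells, 1.60-fold lower in 4T1 (1.14 to 2.27). In RPM, miR-16-1-3p was at 72.9 in 4T1 cells against 73.2 in 4TO7 cells, and miR-16-2-3p at 41.4 and 61.9. Their ratios, 0.997 (0.527 to 2.02) and 0.669 (0.318 to 1.51), had intervals that included 1. MiR-15a-3p had 13 and 8 reads in cells and 0 in EVs. MiR-103-1-5p, miR-103-2-5p and miR-107-5p had 3 reads each in the cells of 4T1 and 1 each in those of 4TO7, and miR-195a-3p had 1 in each cell library.

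Of the 7 other listed mouse miRNAs with the miR-15 seed, miR-322-5p alone was well covered. MiR-322-5p, the mouse counterpart of human miR-424, had 1 read in 4T1 EV against 136 in 4T1 cells, and 6 in 4TO7 EV against 131 in 4TO7 cells. It was lower in EVs of both lines, at a ratio of 0.0765 in 4T1 (0.00192 to 0.434) and 6.35-fold lower in 4TO7 (2.84 to 17.6). Between cells it was 3.27-fold lower in 4T1 (2.55 to 4.19), which no member reached, but per genome-aligned read the ratio was 0.867 (0.677 to 1.11) and the call ended. MiR-497-5p had 4 reads in 4TO7 cells and 0 elsewhere, and miR-195b, miR-6342, miR-6353, miR-6419 and miR-1907 had 0 in all 4 libraries.

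Among 131 other miRNAs with enough reads, those whose centred log2 RPM over the 4 libraries lay closest to a member were ranked by Euclidean distance. Closest to miR-103-3p were miR-26b-5p (0.336), miR-196a-5p (0.368) and miR-196b-5p (0.421), and closest to miR-107-3p were miR-26b-5p (0.293), miR-196a-5p (0.380) and miR-29a-3p (0.431). Closest to miR-15b-5p were miR-101b-3p (0.394), miR-101a-3p (0.413) and miR-17-5p (0.435). For miR-16-5p the nearest was miR-669a-3-3p at 0.666, followed by miR-669a-3p and miR-669o-3p at 0.928. The RPM of miR-669a-3p and miR-669o-3p was equal in each library, so they may not be separate neighbours. Whether the neighbours named here share reads with each other was not tested. MiR-16-5p had 6 reads in 4TO7 EV, and miR-669a-3-3p was at 38.7 RPM there, under the floor of 58.0 RPM. Whether the larger distances of miR-16-5p exceeded counting error was not tested. These distances describe 4 libraries.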

How the data were processed

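Small RNA libraries of 4T1 and 4TO7 cells and of their EVs were used, 1 library per group. Per the labels' protocols, Trizol RNA was depleted of ribosomal RNA, size-selected on a gel and prepared with NEBNext reagents. The submitters' processing notes name cutadapt, Bowtie, bedtools and the build mm9; the versions are not given in the sources used here. Per the alignment logs, Bowtie allowed 1 mismatch and reported up to 10 mature miRNA matches per read. The miRNA tables that the authors deposited hold raw alignment counts for each miRNA by strand, start and length, from 10 nt. Of the miRNA alignments in the logs, they hold 71.4% in 4T1 EV and 84.3% in 4TO7 EV. The share is 47.3% in 4T1 cells and 52.8% in 4TO7 cells. What was left out is not stated, and its effect on EVs against cells was not tested. Length and genome cluster tables were not used here.

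Sense reads of 18 nt or more were summed per miRNA and divided by the library's miRNA alignments of that length. With a minimum of 20 or 21 nt, the divisor was the library's miRNA alignments of that longer minimum. Ratios have exact conditional binomial (Clopper-Pearson) 95% intervals, and shares exact binomial ones. The call rule was 2-fold with at least 50 reads in 1 of 2 libraries, and log2 values had 0.5 reads added. Ratios of ratios are conditional odds ratios with exact intervals, and the line difference has an interval from summed Poisson variances. No p-value is given, since groups had 1 library; reads are not independent molecules. Python 3.11.15, SciPy 1.17.1 and, for TMM scaling, edgeR 4.0.16 were used. Mature sequences are from RefSeq (513 of 645 miRNAs matched, 6 of 6 members) and gene context from GENCODE M21, both GRCm38, which was not used with mm9 coordinates. The text names the 6 members, their 8 other arms, 7 seed relatives and the 3 miRNAs nearest in pattern to each well-covered member. Members and lists were chosen with earlier results of these data known. MiR-486-5p and miR-142-3p stood for the listed marker names miR-486a-5p and miR-142a-3p.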

Additional observations from a re-analysis of the deposited data

Results flagged for a closer look

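Reads shorter than 18 nt were left out of all comparisons, and some of them were abundant. A 10 nt read on bases 12 to 21 of miR-15a-5p, in capitals here, was listed 104982 times in 4T1 cells and 72865 times in 4TO7 cells, against 162 in 4T1 EV and 10 in 4TO7 EV.
miR-15a-5p: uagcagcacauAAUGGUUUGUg
It made up 99.9% of all sense reads listed under miR-15a-5p in each cell library. A 10 nt read on bases 10 to 19 of miR-103-3p was listed 315 times in 4T1 EV against 42 in 4T1 cells, and 16 times in 4TO7 EV against 9 in 4TO7 cells.
miR-103-3p: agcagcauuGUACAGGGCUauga
Its last base was that of the 19 nt reads of miR-103-3p. Whether reads of 10 nt came from these miRNAs was not tested.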

How the results depend on the processing

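Of 168 alternative values of the members' log2 ratios, 132 kept their direction and call, 14 were newly called, 9 were no longer called and 13 changed sign. Changes of the read minimum, which cannot move a ratio, were left out. Some of the 14 were called only because 1 setting asked for an interval beyond a ratio of 1, not 2-fold. That setting leaves the ratio itself unchanged. Median-of-ratios scaling and reads in unshared windows each left 2 members called in EVs against cells of 4T1 (4 in the report) and of 4TO7 (also 4), and counting shared reads once (chosen after seeing the data, as was the per-genome-read ratio of miR-322-5p) left 2 in 4T1. Between cells, where no member was called, all lengths on both strands gave 1, genome-aligned reads as denominator 3 and an interval beyond a ratio of 1 gave 5. Between EVs, all lengths gave 1 and an interval beyond 1 gave 1; for the line difference, all lengths gave 1, genome-aligned reads 2 and an interval beyond 1 gave 1. The log2 ratio of miR-15a-5p in 4T1 EV against cells changed from 2.30 to -0.75 with reads of 21 nt or more, -1.03 with 20 nt or more (chosen after seeing the data), -5.98 with all lengths, -0.26 with genome-aligned reads and -1.73 in unshared windows. Between cells, genome-aligned reads turned miR-15a-5p to 0.56, miR-15b-5p to 1.14, miR-103-3p to 1.28 and miR-107-3p to 1.29, and all lengths turned miR-15b-5p to 0.16 and both miR-103-3p and miR-107-3p to 0.43. Between EVs, reads of 21 nt or more turned miR-107-3p to 0.011. Genome-aligned reads moved the median of all compared miRNAs by -2.55 and -0.66 in EVs against cells of 4T1 and 4TO7, by 1.50 between cells and by -0.40 between EVs; other scalings moved it by at most 0.44. The ratio of miR-15a to miR-16 changed in 4T1 EV to 0.04 (21 nt or more), 0.0385 (20 nt), 0.037 (unshared windows) and 6.41 (all lengths), in 4TO7 EV to 0 under the first 3 of these, and with all lengths to 63.7 in the cells of 4T1 and 249.8 in those of 4TO7. The ratio of miR-15b to miR-16 changed in 4T1 EV to 0.56 (21 nt), 0.615 (20 nt) and 0.593 (unshared windows), in 4TO7 EV to 0.833 under all 3, and in 4T1 cells to 0.733 with all lengths. The all-lengths values include the 10 nt reads; causes of the other changes were not tested. Neither miR-103-3p nor miR-107-3p had a read in an unshared window. No analysis paired by replicate was possible because the groups shared only replicate number 1. EV and cell libraries do pair by line, but a fit of compartment blocked by line was not run. With 0 and 1 EV reads miR-195a-5p, and with 6 in 4TO7 EV miR-16-5p, were limited by depth.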
